A study of Homo sapiens with 4 samples.

Results

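The genes described here are the human potassium channel genes, taken as every protein-coding gene of the GENCODE annotation of hg38 whose symbol begins with KCN, and they number 96 of 20033 protein-coding genes. They were read in 4 lists of CUT&RUN peaks, and a peak was counted for a gene when it overlapped the gene body plus 10 kb on each side. It was counted at the promoter when its centre lay between 1000 bp before and 100 bp after an annotated start site. These windows held 190 of the 15141 SS18::SSX peaks with DMSO and 32 of the 1175 with MS67. For WDR5 they held 254 of the 35605 peaks with DMSO and 88 of the 14123 with MS67.

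Potassium channels let potassium ions leave or enter the cell down their gradient, and so set the resting membrane potential and end the action potential. The KCN genes encode several families: voltage-gated pore subunits, silent subunits that work only together with other voltage-gated subunits, channels opened by calcium or sodium, inward rectifiers, 2-pore channels that carry leak currents, and accessory subunits. Many of them are known from neurons, heart, and smooth muscle.

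The cells were HSSY II, a human synovial sarcoma (SS) line that carries the SS18::SSX1 fusion. SS18::SSX places part of an SSX protein on the SS18 subunit of the SWI/SNF chromatin-remodeling complex, and WDR5 is a core subunit of the KMT2/MLL complexes that methylate histone H3 at lysine 4. The cells were treated for 4 days with DMSO or with 2.5 μM MS67, a PROTAC that directs WDR5 to degradation. CUT&RUN, in which a tethered nuclease releases the chromatin beneath an antibody, was performed for each protein in each treatment, and all 4 groups come from the same line. Each group was 1 library, so no difference below has a replicate check, and the intervals given (exact Clopper-Pearson, 95%) cover counting error only. Peaks were called in each library on its own. The genome-wide coverage recovered from the lists was 0.541 fragments per bp for SS18::SSX with DMSO, 0.737 with MS67, 0.368 for WDR5 with DMSO, and 0.168 with MS67. Thus, the WDR5 library with MS67 had 0.458 times the coverage of its DMSO library, whereas the SS18::SSX library with MS67 had 1.36 times that of its own. The paper added mouse cells as a spike-in and, with that scaling, reports lower overall binding of both proteins with MS67. Values divided by coverage below do not use the spike-in, so they cannot show a change shared by the whole genome. Among genes used as markers of SS, *BCL2* and *MUC1* had promoter peaks of both proteins with DMSO, and *TLE1* and *CD99* had none, which is a measure of binding and not of expression.

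The sequences of 5 SS18::SSX peaks and 2 WDR5 peaks are given to show what kind of DNA lay beneath the binding described below. Each runs for at most 200 bases around the summit, within the peak and outside annotated UTRs, 5′ to 3′ on the plus strand of hg38, with CG dinucleotides in capitals. The first pair are the SS18::SSX peaks of highest −log10 q at *KCNG2* and *KCNQ5*, where the protein had many peaks. They lie 5′ of *KCNG2* (chr18:79790208-79790407) and at a coding exon of *KCNQ5* (chr6:73133478-73133677).
KCNG2, SS18::SSX, 5′ flank: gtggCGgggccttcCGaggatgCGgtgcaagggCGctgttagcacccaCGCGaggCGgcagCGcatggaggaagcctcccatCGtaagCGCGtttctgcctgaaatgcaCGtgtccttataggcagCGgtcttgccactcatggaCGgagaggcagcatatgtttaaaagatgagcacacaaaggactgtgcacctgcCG
KCNQ5, SS18::SSX, coding exon: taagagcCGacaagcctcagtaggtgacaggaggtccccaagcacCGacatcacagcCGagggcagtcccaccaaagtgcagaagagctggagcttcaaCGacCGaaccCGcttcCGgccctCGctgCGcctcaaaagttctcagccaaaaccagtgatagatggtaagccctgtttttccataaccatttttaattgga

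The other 5 are promoter peaks. Those of SS18::SSX are at *KCNA7* (chr19:49073433-49073571), where a peak was also called with MS67, at *KCNJ3* (chr2:154697690-154697854), where WDR5 overlapped it, and at *KCNF1* (chr2:10911093-10911292), where WDR5 did not. Those of WDR5 are at *KCND2* (chr7:120272847-120273046) and *KCNJ10* (chr1:160070427-160070626), both kept with MS67.
KCNA7, SS18::SSX, promoter: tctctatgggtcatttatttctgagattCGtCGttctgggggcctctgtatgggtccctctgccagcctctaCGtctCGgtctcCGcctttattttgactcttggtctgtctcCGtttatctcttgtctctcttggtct
KCNJ3, SS18::SSX, promoter: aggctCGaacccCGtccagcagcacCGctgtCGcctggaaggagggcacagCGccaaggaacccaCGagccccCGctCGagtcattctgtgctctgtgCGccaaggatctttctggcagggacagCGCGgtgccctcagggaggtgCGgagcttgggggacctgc
KCNF1, SS18::SSX, promoter: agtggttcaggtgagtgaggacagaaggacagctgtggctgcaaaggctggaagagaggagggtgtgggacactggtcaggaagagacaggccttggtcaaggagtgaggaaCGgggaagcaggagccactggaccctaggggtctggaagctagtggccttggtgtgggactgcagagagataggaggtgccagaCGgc
KCND2, WDR5, promoter: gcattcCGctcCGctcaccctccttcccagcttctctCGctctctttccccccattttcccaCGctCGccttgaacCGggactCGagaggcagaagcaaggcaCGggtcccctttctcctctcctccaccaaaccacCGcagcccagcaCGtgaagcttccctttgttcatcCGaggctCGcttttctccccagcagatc
KCNJ10, WDR5, promoter: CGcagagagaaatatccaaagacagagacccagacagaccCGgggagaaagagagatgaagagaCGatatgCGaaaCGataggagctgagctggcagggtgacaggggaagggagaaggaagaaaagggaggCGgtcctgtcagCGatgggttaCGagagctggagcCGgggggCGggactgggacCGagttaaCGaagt

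These stretches ranged in CG content from 1.0 CG per 100 bases at the *KCNF1* promoter to 7.5 in the 5′ flank of *KCNG2*. The *KCNQ5* exon had 4.5, the *KCNA7* promoter 4.32, and the *KCNJ3* promoter 7.27. Both WDR5 promoter stretches had 6.0. Over 200 bases around every summit of the DMSO lists, the median was 3 CG per 100 bases for SS18::SSX and 3 for WDR5, and 95.3% and 95.7% of the windows held at least 1 CG. Thus, the potassium channel peaks shown included both CG-rich and CG-poor DNA.

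With DMSO, 43 of the 96 genes (44.8%, interval 34.6 to 55.3%) had an SS18::SSX peak in the window, against 31.8% of all protein-coding genes. At promoters, 19 genes (19.8%, 12.4 to 29.2%) had one, against 13.4%. With MS67, 9 genes (9.38%, 4.38 to 17.1%) had an SS18::SSX peak in the window, against 3.63% of all genes, and 2 (2.08%, 0.253 to 7.32%) had one at a promoter, against 0.724%. SS18::SSX peaks were thus listed at fewer potassium channel genes with MS67 than with DMSO, and at a larger share of these genes than of all genes in both treatments, although the promoter interval with MS67 included the share of all genes, as did that with DMSO. With 50 kb on each side in place of 10 kb, the window shares were 55.2% with DMSO (44.7 to 65.4%) against 47.6%, and 9.38% with MS67 (4.38 to 17.1%) against 6.68%, and both intervals included the share of all genes. With promoter peaks counted by any base within 1 kb of a start site, the share with DMSO was 35.4% (25.9 to 45.8%) against 19.8%, and the interval did not include it.

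WDR5 gave another picture. With DMSO, 76 of the 96 genes (79.2%, 69.7 to 86.8%) had a WDR5 peak in the window, near the 75.0% of all genes, and 47 (49.0%, 38.6 to 59.4%) had one at a promoter, near 43.0%. With MS67, 41 genes (42.7%, 32.7 to 53.2%) had a WDR5 peak in the window, below the 54.1% of all genes. At a promoter, 19 (19.8%, 12.4 to 29.2%) had one, against 27.7%, a share that the interval included. The window interval also included the share of all genes with the gene body alone (30.2%, 21.3 to 40.4%, against 39.3%). It did so with peaks counted only for the gene of the nearest start site (35.4%, 25.9 to 45.8%, against 40.8%) and with −log10 q above 5 (9.38%, 4.38 to 17.1%, against 15.3%). With 50 kb flanks (54.2%, 43.7 to 64.4%, against 70.6%) it did not. The lower coverage of the WDR5 library with MS67 applies to both sets of genes, and its part in the difference between them was not tested.

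**Figure D1:**
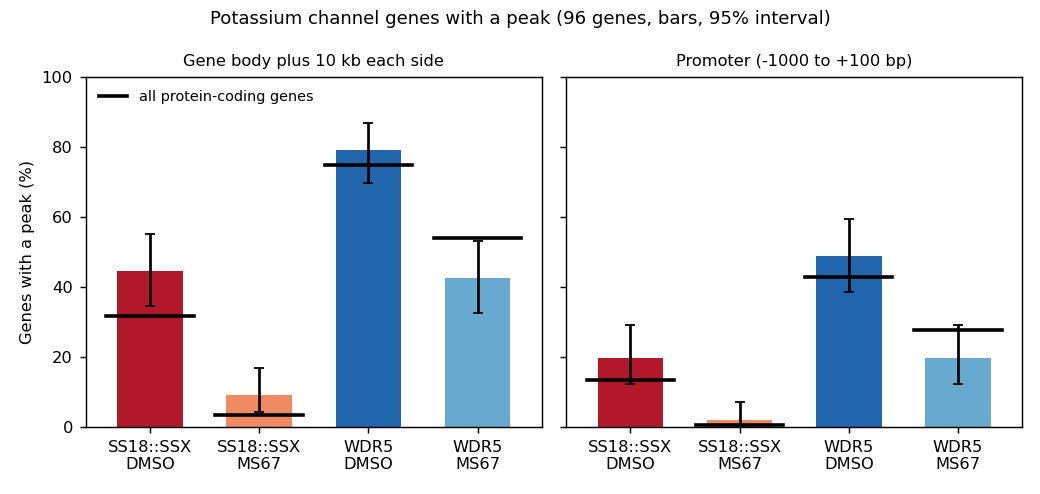
The y axis is the share of genes with a peak in percent and the x axis the 4 libraries, with the gene body plus 10 kb each side on the left and the promoter on the right. Bars are the 96 potassium channel genes with exact 95% intervals (counting error only) and black lines are all 20033 protein-coding genes: the SS18::SSX bars stand above their lines at 44.8% and 9.38% in the window, and the WDR5 bar with MS67 stands below its line at 42.7%.

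Potassium channel genes are long, and a long gene has more room for a peak. Their median length was 42106.5 bp against 27471 bp for all protein-coding genes, with a median of 4 annotated start sites against 5. Taking the share of genes with a peak in 10 classes of length over all genes, 33.5 of the 96 would have had an SS18::SSX peak with DMSO, and 43 had one, a ratio of 1.28 (0.991 to 1.58). With MS67 the ratio was 2.25 (9 against 3.99, 1.05 to 4.10). For WDR5 it was 1.01 with DMSO (76 against 75.0, 0.892 to 1.11) and 0.757 with MS67 (41 against 54.1, 0.579 to 0.944). At matched length, the interval for SS18::SSX with DMSO reached 1, and the WDR5 share with MS67 was below that of genes of the same length.

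Most SS18::SSX peaks lay at few of the genes. Of the 43 genes with a peak, 17 had exactly 1 (39.5%), and the 5 with the most held 120 of the 190 peaks (63.2%). Among the genes with many peaks were *KCNQ5* with 26, *KCNG2* with 24, *KCND2* with 21, and *KCNQ1* with 11. *KCNMA1*, *KCNIP3*, *KCNT1*, and *KCNF1* had 4 each. Peaks covered 0.533% of all the potassium channel windows with DMSO, against 0.255% of the windows of all genes, and 0.107% against 0.0222% with MS67. With MS67, most of the covered bases lay at 1 gene not reported here. With DMSO, that gene also held the most, followed by *KCNG2*. The higher coverage by SS18::SSX peaks cannot therefore be read as a trait of the whole family. WDR5 peaks covered less of the potassium channel windows than of the windows of all genes, with 0.707% against 0.939% with DMSO and 0.149% against 0.305% with MS67.

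**Figure D2:**
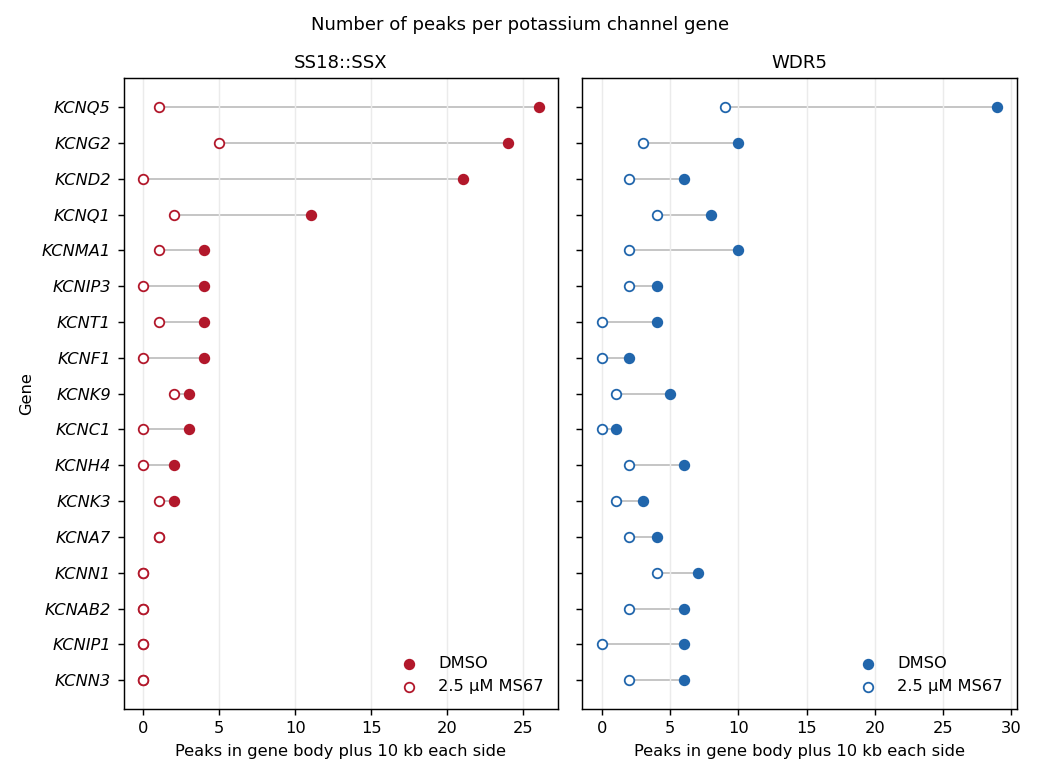
The x axis is the number of peaks in the gene body plus 10 kb each side and the y axis lists 17 genes with at least 3 SS18::SSX peaks with DMSO, any with MS67, or at least 6 WDR5 peaks with DMSO, for SS18::SSX on the left and WDR5 on the right. Filled points are DMSO and open points 2.5 μM MS67: *KCNQ5* falls from 26 to 1 SS18::SSX peaks and *KCND2* from 21 to 0.

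The regional background was raised in all 4 libraries at some of these genes. At *KCNG2*, the local background of the peaks, relative to the coverage of the same library, had a median of 25.2 for SS18::SSX with DMSO and 50.2 with MS67, and of 15.6 and 16.1 for WDR5. Over all peaks of each list, the median was 5.72 for SS18::SSX with DMSO and 12.2 with MS67, and 4.91 and 4.65 for WDR5. A background of more than 10 times coverage was found at 52.1% of the SS18::SSX peaks of potassium channel genes with DMSO, against 32.3% of the whole list, and at 34.3% of their WDR5 peaks, against 17.7%. The part of this raised background, which both antibodies share, in the number of peaks was not tested. Without such peaks, 40 of the 96 genes (41.7%) had an SS18::SSX peak with DMSO, against 30.1% of all genes. With MS67, 5 (5.21%, 1.71 to 11.7%) had one, against 2.27%, a share that the interval included.

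*KCNG2*, a silent subunit that modifies Kv2 channels, lies at chr18:79797938-79900184 on the plus strand, 473101 bp from the chromosome end, and SLC66A2 shares its window. It had 24 SS18::SSX peaks with DMSO and 5 with MS67, and 10 and 3 WDR5 peaks. Its peak at chr18:79788629-79790880, in the 5′ flank, had the highest −log10 q among all the potassium channel genes, 26.5, with 117 fragments, and was kept with MS67. The local background of its SS18::SSX peaks with DMSO ranged from 7.31 to 55.6 times coverage.

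*KCNQ5*, which encodes a subunit of the neuronal M-current channel, lies at chr6:72621792-73198853 on the plus strand and had 26 SS18::SSX peaks with DMSO and 1 with MS67. WDR5 had 29 peaks there with DMSO, the most of any potassium channel gene, and 9 with MS67. Its leading SS18::SSX peak lay at a coding exon (chr6:73133437-73133683) with 54 fragments and a −log10 q of 23.6, overlapped a WDR5 peak, and had no overlapping peak with MS67. Of its 26 SS18::SSX peaks, 22 were intronic and 25 were lost with MS67.

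*KCND2* encodes a pore subunit of A-type currents. It lies at chr7:120273175-120750337 on the plus strand, with 21 SS18::SSX peaks with DMSO and 0 with MS67. Of these 21, 20 were intronic and none lay at a promoter, and the leading one had 44 fragments and a −log10 q of 16.6. WDR5 had 6 peaks with DMSO and 2 with MS67. The WDR5 promoter peak (chr7:120272779-120273165) had 24 fragments and a −log10 q of 14.1 with DMSO, and one with 13 fragments and a −log10 q of 8.04 overlapped it with MS67. Divided by coverage, the summit with MS67 was 1.18 times that with DMSO.

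*KCNQ1*, a pore subunit of the cardiac slow delayed rectifier, had 11 SS18::SSX peaks with DMSO, all intronic, and 2 with MS67. WDR5 had 8 and 4 there. The local background of its SS18::SSX peaks with DMSO ranged from 1.79 to 18.2 times coverage.

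**Figure D3:**
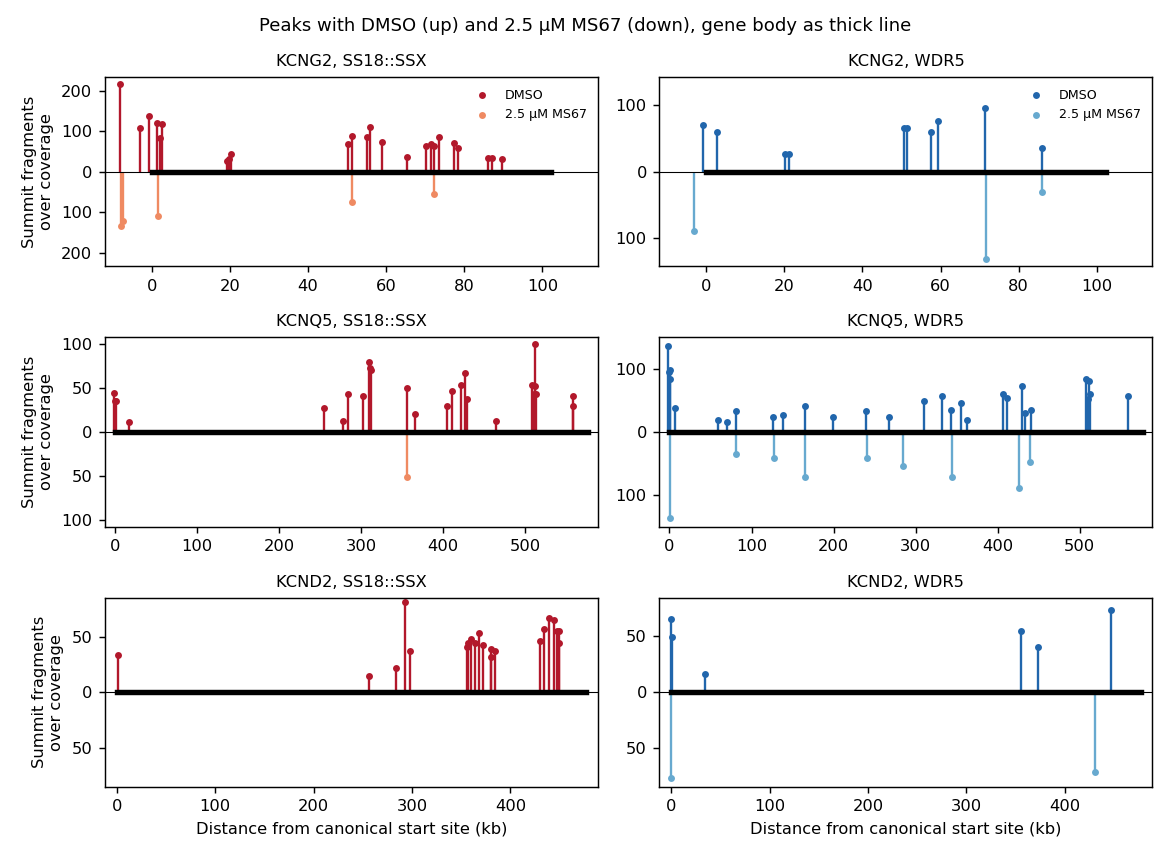
The x axis is the distance from the canonical start site in kb and the y axis the fragments at each peak summit divided by the coverage of its library, for SS18::SSX (left) and WDR5 (right) at *KCNG2*, *KCNQ5*, and *KCND2*. DMSO peaks point up and MS67 peaks down, with the gene body as a thick line: 5 SS18::SSX peaks with MS67 are listed at *KCNG2*, 1 at *KCNQ5*, and 0 at *KCND2*.

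Within the windows, 34 of the 190 SS18::SSX peaks with DMSO lay at promoters, 117 in introns, 8 at coding exons, 9 in noncoding parts of exons, and 22 in the flanks. A start site of the gene lay within 5 kb of 103 of them (54.2%). For 5 of the 43 genes, among them *KCNIP2* and *KCNK18*, the flanks held the only SS18::SSX peaks. Of the 254 WDR5 peaks with DMSO, 69 lay at promoters and 19 at the promoter of another protein-coding gene, so that some windows count the binding of a neighbour. *KCNA7* is such a case, with 4 WDR5 peaks in its window and all 4 in the flanks. The places of the peaks were not counted over all protein-coding genes, so whether potassium channel genes differ in them cannot be told.

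The 19 genes with an SS18::SSX promoter peak with DMSO came from most classes. Voltage-gated pore subunits gave 9, among them the Shaker-type *KCNA2* and *KCNA7*, the delayed rectifier *KCNB2*, the A-type *KCND3*, the brain-enriched *KCNH4*, and *KCNQ5*. The silent subunits gave *KCNF1*, *KCNG1*, and *KCNG2*, and the 2-pore channels *KCNK2*, *KCNK12*, *KCNK13*, and *KCNK17*. The calcium-activated *KCNMA1* (the BK channel) and the sodium-activated *KCNT1* also had one, as did *KCNJ3*, a G protein-gated inward rectifier. No accessory subunit gene did.

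These promoter peaks differed in depth, with 8 fragments at *KCNA2* and 74 at *KCNG2*. At *KCNB2* the peak had 18 fragments and a −log10 q of 8.85, with a background of 3.15 times coverage. *KCNT1* had 23 fragments and a −log10 q of 7.05, *KCNMA1* 19 fragments and 6.34, and *KCNQ5* 24 fragments and 6.06. The *KCNF1* peak (chr2:10911093-10911836) had 25 fragments in a background of 10.9 times coverage. At *KCNJ3* (chr2:154697690-154697927) and *KCNK12* (chr2:47570423-47570617), 10 and 15 fragments stood over a background of 1.54 and 4.45 times coverage, so a low background was found beside peaks with few fragments.

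With MS67, 17 of these 19 genes (89.5%, 66.9 to 98.7%) had no SS18::SSX promoter peak, against 95.9% of all genes with one. One of the exceptions was *KCNA7*, a muscle Kv1 subunit at chr19:49067397-49072699. The *KCNA7* peak (chr19:49073433-49073571) had 16 fragments and a −log10 q of 5.30 with DMSO. The overlapping peak with MS67 (chr19:49073306-49073737) had 19 fragments and a −log10 q of 7.44. Divided by coverage, the summit with MS67 was 0.871 times that with DMSO.

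Of the 190 SS18::SSX peaks in potassium channel windows, 164 (86.3%, 80.6 to 90.9%) had no overlapping SS18::SSX peak with MS67. This was below the loss in the whole list, 94.2%, and in the windows of all genes, 94.6%. In the whole list taken at the −log10 q of the potassium channel peaks, the loss was 91.0%. Without the 5 genes with the most peaks, 66 of 70 (94.3%) were lost. Of the 91 peaks with a background of at most 10 times coverage, 88 (96.7%) were lost, and the loss of all peaks at such a background was not computed.

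Peaks of SS18::SSX with MS67 were listed at 9 potassium channel genes. Among these, *KCNG2* had 5, *KCNQ1* 2, and *KCNK9* 2, whereas *KCNQ5*, *KCNMA1*, *KCNT1*, *KCNK3*, and *KCNA7* had 1 each. *KCNK3* and *KCNK9* encode the acid-sensitive TASK channels. The single MS67 peaks at *KCNK3* and *KCNT1* overlapped no DMSO peak, and the 2 and 4 DMSO peaks of these genes were all lost. Of the 32 MS67 peaks, most lay at 1 gene not reported here. Only 4 of the 32 (12.5%, 3.51 to 29.0%) had no overlapping DMSO peak, and that share over the whole MS67 list is not given. By gene, 34 of the 43 (79.1%, 64.0 to 90.0%) had no SS18::SSX peak left in the window, against 89.2% of all genes with one. Where peaks overlapped between treatments, the summit fragments divided by coverage had a median ratio of 0.639 with MS67 against DMSO over 28 pairs. It was 0.699 over the 911 pairs of the whole list. Most of the 28 pairs lay at 1 gene not reported here, so the 0.639 is mainly the value of 1 locus. Of the other genes, *KCNA7* (0.871) and *KCNK9* (0.755) lay above 0.699, and *KCNQ1* (0.562) lay below it. The pairs at *KCNQ5* (1.03) and *KCNMA1* (1.02) were not lower with MS67. At *KCNG2*, 5 pairs gave a median of 0.841, with a range of 0.558 to 0.903, so every one of them was lower with MS67.

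WDR5 peaks were read in the same way. Of 254 WDR5 peaks with DMSO, 195 (76.8%, 71.1 to 81.8%) had no overlapping WDR5 peak with MS67, close to the 75.0% of the whole list and the 72.8% in the windows of all genes. By gene, the loss was larger than for all genes. Of the 76 genes with a WDR5 peak, 35 (46.1%, 34.5 to 57.9%) had none left in the window, against 30.8%, and of the 47 with a promoter peak, 29 (61.7%, 46.4 to 75.5%) had none left at the promoter, against 50.1%, a share that the interval included. Over 65 overlapping pairs, the summit fragments divided by coverage had a median ratio of 1.04 with MS67 against DMSO, compared with 1.26 over the 9293 pairs of the whole list. Only peaks called in both treatments enter these pairs, and the division by coverage removes any change shared by the whole genome.

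Genes with many WDR5 peaks with DMSO were *KCNQ5* (29), *KCNG2* (10), *KCNMA1* (10), *KCNQ1* (8), and *KCNN1* (7). *KCND2*, *KCNAB2*, *KCNIP1*, *KCNN3*, and *KCNH4* followed with 6 each. *KCNN1* and *KCNN3* encode small-conductance calcium-activated channels, *KCNAB2* a cytoplasmic Kv beta subunit, and *KCNIP1* a calcium-binding partner of Kv4 channels. With MS67 these numbers were 9 at *KCNQ5*, 4 at *KCNN1*, and 0 at *KCNIP1*. *KCNN1*, *KCNN3*, *KCNAB2*, and *KCNIP1* had no SS18::SSX peak in either treatment.

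By −log10 q, the leading WDR5 peak with DMSO was at a promoter of *KCNIP2* (15.2, 30 fragments), another Kv4 partner, and it was kept. Other leading peaks were one 5′ of *KCNQ5* (14.8, 50 fragments), one in the 3′ flank of *KCNA7* (14.4, 30 fragments), and one at a coding exon of *KCNK12* (14.3, 19 fragments). The *KCNQ5* peak was lost with MS67 and those at *KCNA7* and *KCNK12* were kept. With MS67, the leading one was at the *KCND1* promoter, with 15 fragments and a −log10 q of 9.97, and there the summit divided by coverage was 2.05 times that with DMSO.

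A WDR5 promoter peak was present in both treatments at 18 genes, which included the voltage-gated *KCNA1*, *KCNC4*, *KCND1*, *KCND2*, and *KCNH2* (the cardiac hERG channel), the inward rectifiers *KCNJ8* and *KCNJ10*, and the 2-pore *KCNK4*, *KCNK6*, and *KCNK10*. Some of their peaks with MS67 were shallow, with 4 fragments at *KCNA1* and 4 at *KCNJ10*. At *KCNA1* and *KCNC4*, the MS67 peak did not overlap the only WDR5 peak with DMSO, so the same peak was not kept there. *KCNIP3* alone had a WDR5 promoter peak with MS67 and none with DMSO, with 12 fragments, a −log10 q of 2.88, and a background of 12.8 times coverage. It was not a new site, because both WDR5 peaks with MS67 at *KCNIP3* overlapped DMSO peaks, whose centres lay outside the promoter window. Divided by coverage, their summits were 0.873 to 0.960 times those with DMSO.

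The channel classes differed in how often SS18::SSX was found. Of 30 voltage-gated pore subunit genes, 17 had an SS18::SSX peak with DMSO, where all genes of the same lengths would give 11.3. Of 15 2-pore genes, 11 had one, where length would give 4.76. Among these 11, *KCNK16* and *KCNK17* are neighbours counted from the same 2 peaks, and *KCNK18* had a flank peak only. Of the 10 silent subunit genes, 6 did, where length would give 3.18. The inward rectifiers gave 5 of 16, near the 5.10 of their lengths, and one of these, *KCNJ18*, has a near-identical copy in *KCNJ12*, so its reads are uncertain. The channels opened by calcium or sodium gave 2 of 8 (*KCNMA1* and *KCNT1*), below 3.22. The 16 accessory subunit genes gave 2 (*KCNIP2* and *KCNIP3*), below 5.63, and the *KCNAB*, *KCNE*, and *KCNMB* families gave none, nor did the 4 *KCNN* genes.

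WDR5 was more even across the classes. With DMSO it was found at 25 of 30 voltage-gated pore subunit genes, 13 of 15 2-pore genes, 12 of 16 inward rectifiers, 12 of 16 accessory subunits, 7 of 8 calcium- or sodium-activated channels, and 7 of 10 silent subunits. With MS67 the inward rectifiers had 4 of 16, where length would give 9.04, and the accessory subunits 5 of 16, where length would likewise give 9.04. The voltage-gated pore subunits had 16 of 30, near the 17.2 of their lengths, and the 2-pore genes 8 of 15, near 8.21. These classes are small, and no difference between them was tested.

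**Figure D4:**
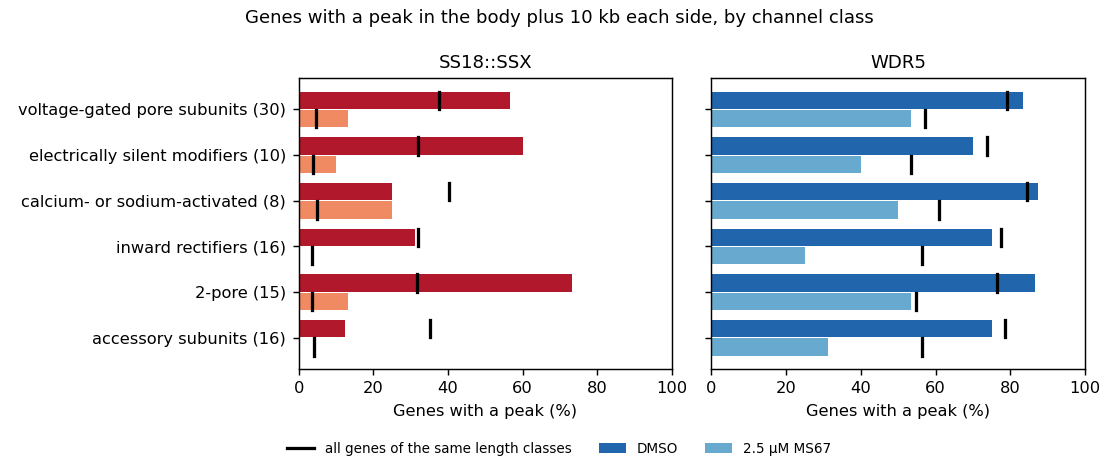
The x axis is the share of genes with a peak in the body plus 10 kb each side in percent and the y axis the channel class with its number of genes, for SS18::SSX (left, red) and WDR5 (right, blue). Dark bars are DMSO, light bars 2.5 μM MS67, and black ticks the share of all protein-coding genes of the same length classes: the 2-pore bar for SS18::SSX stands at 73.3% and the accessory bar at 12.5%, whereas all WDR5 bars with DMSO lie between 70.0 and 87.5%.

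The binding of both proteins was compared at the same genes. With DMSO, 41 of the 96 genes (42.7%) had peaks of both in the window, against 30.3% of all genes. WDR5 alone was found at 35 (36.5%), against 44.7% of all genes, and SS18::SSX alone at 2 (*KCNA6* and *KCNJ18*). The remaining 18 (18.8%) had neither, against 23.4% of all genes. Of the 190 SS18::SSX peaks, 63 (33.2%, 26.5 to 40.3%) overlapped a WDR5 peak, near the 33.7% of the whole list. Of the 254 WDR5 peaks, 64 (25.2%, 20.0 to 31.0%) overlapped an SS18::SSX peak, against 13.9%. These 64 were clustered, with 9 of the 29 WDR5 peaks at *KCNQ5*, 7 of the 10 at *KCNG2*, and 0 of the 10 at *KCNMA1*. A gene not reported here gave more than any of these. The interval treats the peaks as independent, so the difference from 13.9% cannot be read as a trait of the whole family. At promoters, 15 of the 19 genes with SS18::SSX also had WDR5 (78.9%, 54.4 to 93.9%), against 69.7%.

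The promoters themselves differed in CpG content. Over the 1000 bp before to 100 bp after the canonical start site, the ratio of observed to expected CpG had a median of 0.695 at the 19 genes with an SS18::SSX promoter peak and 0.671 at the 32 with WDR5 alone. It was 0.383 at the 45 with neither, and 0.632 over all protein-coding genes. A peak at any annotated start site counted for these groups. At the canonical start site alone, 15 genes had an SS18::SSX promoter peak and 34 a WDR5 one. Some ratios are thus for a promoter without the peak. A ratio over 0.6 was found at 14 of the 19 (73.7%), 20 of the 32 (62.5%), and 10 of the 45 (22.2%), against 54.9% of all genes. Among all genes grouped in the same way, the shares were 74.0%, 71.3%, and 39.6%. The medians had the same order over all genes, with 0.712, 0.695, and 0.487, so this order was no feature of the potassium channel genes alone.

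**Figure D5:**
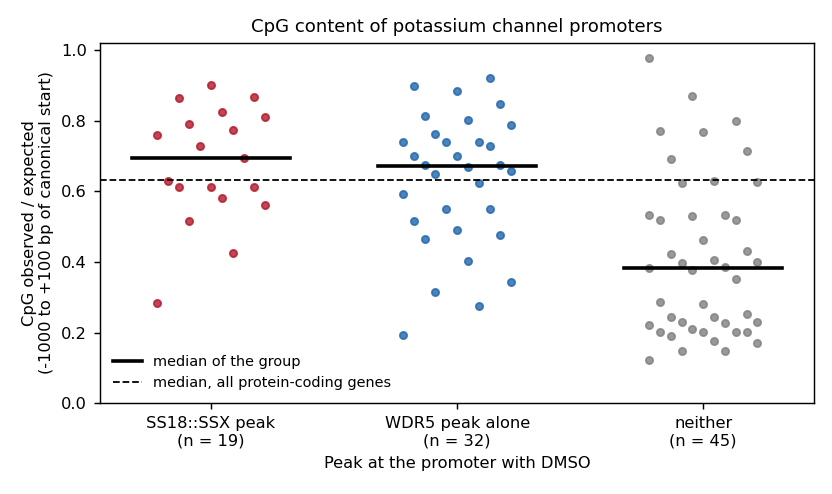
The y axis is the ratio of observed to expected CpG over the 1000 bp before to 100 bp after the canonical start site. The x axis groups the 96 potassium channel genes by their promoter peaks with DMSO at any annotated start site. Each point is 1 gene, solid lines are medians, and the dashed line is the median of all protein-coding genes, 0.632: the genes with neither peak spread below it, with a median of 0.383.

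Other ion channel families, read with the same windows, stood on both sides. SS18::SSX with DMSO was found at 14 of 26 voltage-gated calcium channel genes (53.8%) and at all 4 HCN genes, but at 2 of 14 voltage-gated sodium channel genes (14.3%), 5 of 23 TRP genes (21.7%), and 2 of 9 CLCN genes (22.2%). Length would give 9.76 calcium channel, 1.37 HCN, 5.48 sodium channel, 7.93 TRP, and 2.92 CLCN genes with a peak. For the potassium channel genes it would give 33.5, and 43 had one. The potassium channel share, 44.8%, lay between the shares of the other families, which is not a comparison at matched length. The differences between families were not tested.

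The 18 potassium channel genes with neither protein with DMSO had no peak with MS67 either. The longest were *KCNAB1* (501438 bp), *KCNH5* (402574 bp), and *KCNC2* (169763 bp), a Kv beta subunit, an ether-à-go-go channel, and a fast-spiking Kv3 channel. *KCNAB1* and *KCNC2* had CpG-poor canonical promoters, with ratios of 0.220 and 0.148, whereas that of *KCNH5* was 0.771. Absence from a list means that no peak passed the caller at this coverage.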

How the data were processed

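Alignment to hg38 was by Bowtie2 (v.2.4.4). The authors then filtered nonprimary alignments (Samtools v.1.10) and duplicates (Picard v.2.18.2), and MACS2 (v.2.2.6) called the peaks of each library. The MACS2 options and control are not given in the sources used here. The submitters' processing notes also name bedtools 2.28.0, deepTools 3.3.0, SAMtools 1.9, and mm10. For each peak the authors deposited the fold at its summit, which is a ratio over the background nearby, −log10 p and −log10 q values, and a score, which was read but not used. The fold and −log10 p together fix the fragments at the summit and the local background, and all peaks fitted within 0.001. On simulated peaks the step was tested first. The lowest background of a list was taken as its coverage.

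Genes and start sites were those of GENCODE 44. Overlap meant at least 1 bp. CpG was counted in hg38. With 1 library per condition no test was made. The genes, the classes, and the rule for named genes were chosen with earlier results of these data known. That rule took every gene with an SS18::SSX promoter peak with DMSO or an SS18::SSX peak with MS67. It also took those with the most peaks or the highest −log10 q, and genes with a WDR5 promoter peak with MS67 and none with DMSO. The 3 longest genes with no peak completed it. *KCNJ10*, *KCNJ18*, *KCNA6*, *KCND1*, and other genes with WDR5 promoter peaks in both treatments were named after their values were seen. Alternatives were other windows, promoters, thresholds, overlaps, and list sizes. Python 3.11.15, numpy 2.4.6, scipy 1.17.1, pandas 2.3.3, pysam 0.24.0, and matplotlib 3.10.9 were used. Some genes that the rule covers and 1 peak sequence are not reported here, and counts over all genes include them.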

Additional observations from a re-analysis of the deposited data

How the results depend on the processing

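Over 15 results, 91 alternatives were computed (8 of them chosen after the values were seen), and 52 stayed within the counting interval. With −log10 q above 5, genes with a window peak were 22.9% for SS18::SSX with DMSO, 3.13% with MS67, 53.1% for WDR5 with DMSO, and 9.38% with MS67, against 9.81%, 0.819%, 52.6%, and 15.3% of all genes. Promoter shares were then 11.5% (5.86 to 19.6%) for SS18::SSX with DMSO, 33.3% (24.0 to 43.7%) for WDR5 with DMSO, and 2.08% with MS67, against 3.02%, 23.6%, and 6.74%, so that both DMSO intervals no longer included the share of all genes, the WDR5 loss was 90.5%, and 20.3% of SS18::SSX peaks overlapped WDR5. With −log10 q above 3 and fold above 3 (SS18::SSX) or 6 (WDR5), WDR5 window shares were 38.5% and 11.5% against 30.5% and 16.8%, WDR5 promoter shares 20.8% (13.2 to 30.3%) and 3.13% against 11.7% and 7.39%, losses 96.4% (SS18::SSX) and 87.0% (WDR5), and the overlap 9.09%. DMSO lists held to the top peaks, as many as with MS67, gave window shares of 8.33% and 52.1% against 3.19% and 52.0%, promoter shares of 3.13% and 33.3% against 0.654% and 23.3%, and losses of 54.1% and 59.6%, for SS18::SSX and WDR5.

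The gene body alone gave 34.4% for SS18::SSX with DMSO and 68.8% and 30.2% for WDR5, against 21.3%, 60.0%, and 39.3% of all genes, and 50 kb flanks gave 87.5% and 54.2% for WDR5, against 85.4% and 70.6%, and 55.2% and 9.38% for SS18::SSX, against 47.6% and 6.68%, within both intervals. Any peak base within 1 kb of a start site gave promoter shares of 35.4% for SS18::SSX and 59.4% for WDR5, against 19.8% and 58.5%, and the canonical start site alone 35.4% for WDR5, against 31.2%. Peaks counted as overlapping within 1 kb gave losses of 76.3% and 60.6% and an overlap of 65.8%, an overlap of 50% of the peak gave 94.2%, 92.9%, and 21.6%, and merged neighbours gave a WDR5 loss of 69.9%. Without the 5 genes with the most peaks and at peaks with a background of at most 10 times coverage, the SS18::SSX loss was 94.3% and 96.7%. For the losses and overlaps under all these alternatives, the shares over all peaks were not computed. Whether the potassium channel peaks differ from all peaks there cannot be told.

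No paired analysis was possible because each target and treatment has 1 library. The losses rest on separate peak calls, and the WDR5 library with MS67 had 0.458 times the coverage of its DMSO library.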
